A study of Homo sapiens with 4 samples.

Results

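The 10 genes described here are commonly used to mark cancer stem cells and were taken by their gene names in the deposited tables. They comprise the surface markers CD24, CD44 and PROM1, the aldehyde dehydrogenases ALDH1A1, ALDH1A2, ALDH1A3 and ALDH3A1, and the nuclear factors SOX2, KLF4 and BMI1. All 10 were found, each on 1 row, among 26485 gene names. The mRNA was measured by RNA sequencing in 4 libraries of anaplastic thyroid cancer (ATC) cells, 1 library per condition. SW1736 and 8505C are established human ATC cell lines, and their wild-type (wt) cells received no drug. The resistant cells, SW1736-PTX and 8505C-PTX, were, by the labels, obtained from them by exposure over 6 months to paclitaxel (PTX), a microtubule-stabilizing drug, rising from 1 nM to 1.5 µM, and were kept in medium with 1.5 µM. The labels do not say whether the resistant lines are clones or mixed populations. Since each condition has 1 library, nothing shows how far cultures of 1 condition vary, and the differences carry no p-value.

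Tumor cells able to found new tumors are often sorted by surface proteins and by aldehyde dehydrogenase activity. CD44 is a receptor for hyaluronan, CD24 a small lipid-anchored glycoprotein, and PROM1, or CD133, a membrane protein of cell protrusions. ALDH1A1, ALDH1A2 and ALDH1A3 oxidize retinal to retinoic acid, the ligand of nuclear retinoic acid receptors, whereas ALDH3A1 acts on other aldehydes. SOX2 and KLF4 are transcription factors used to reprogram cells to pluripotency, and BMI1 is a subunit of polycomb repressive complex 1, which silences genes through histone H2A ubiquitination.

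Levels are given as FPKM, the aligned fragments scaled to transcript length and to the total aligned in the library, as the authors deposited them. A fold change is log2 of the ratio of FPKM values after adding 0.1 to each, which understates changes at low levels. Genes were compared if at least 1 of both libraries had more than 0.5 FPKM, and were called if the log2 fold change lay beyond 1.5 in either direction. The libraries held an estimated 43.5 to 57.9 M reads, the wt cells having fewer than the PTX cells of the same line. Fewer gene names were at 0 in PTX than in wt cells, 8485 against 10379 in SW1736 and 8869 against 10241 in 8505C. The defining thyroid genes TSHR and SLC5A5 were at 0 in every library, and TG reached at most 0.006 FPKM. The summed level of the thyroid markers ran from 30.9 to 64.9 FPKM. Of 8 blood and endothelial markers, CD3E was at 0 in every library and PTPRC did not exceed 0.020 FPKM. The summed level of these 8 genes was 6.77 and 24.7 FPKM in wt and PTX cells of SW1736, and 78.2 and 52.3 in those of 8505C. CDH5, the endothelial cadherin, accounted for 55.9 FPKM of the sum in 8505C wt and CD68, a lysosomal protein of macrophages, for 43.0 in 8505C-PTX. The part of these sums in the results below was not tested.

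The library labelled SW1736-PTX stood nearer to 8505C wt than to SW1736 wt. Pearson's r across 14692 genes, which are not independent replicates, was 0.873 between SW1736-PTX and 8505C wt and 0.767 between SW1736-PTX and SW1736 wt, and 0.933 between both PTX libraries. PAX8, a thyroid transcription factor, reached 38.2 FPKM in SW1736 wt but only 0.206 in SW1736-PTX, 0.123 in 8505C wt and 0.146 in 8505C-PTX. NKX2-1, another factor of the thyroid lineage, was at 0 in SW1736 wt and at 36.3, 30.5 and 39.0 FPKM in the other libraries in that order. Whether the cells labelled SW1736-PTX derive from SW1736 was not tested, and a change in SW1736 below means the library labelled SW1736-PTX against SW1736 wt. The values of SW1736-PTX are also set against 8505C wt, and these comparisons share the SW1736-PTX library.

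Of the 10 markers, 4 exceeded 0.5 FPKM in every library (CD44, ALDH1A3, KLF4 and BMI1), and 3 never did (PROM1, ALDH1A2 and ALDH3A1). The other 3, CD24, ALDH1A1 and SOX2, were on in some libraries and at or near 0 in others. In SW1736-PTX against SW1736 wt, 5 of the 7 markers compared were called, where 25.9% of all 14202 genes compared were. CD24, ALDH1A1, SOX2 and KLF4 were higher (15.7% of all genes were) and ALDH1A3 was lower (10.2%). CD24, ALDH1A1 and SOX2 passed the FPKM limit only through SW1736-PTX, so they could only be higher there. With the limit required in both libraries, only KLF4 (higher) and ALDH1A3 (lower) were called. In 8505C-PTX against 8505C wt, 3 of 7 were called, beside 20.9% of 13794 genes. ALDH1A1, ALDH1A3 and SOX2 were higher (15% of all genes), and no marker was lower (5.89%). SOX2 passed the limit only through 8505C-PTX. Against 8505C wt, only SOX2 and KLF4 among the 7 markers compared were called in SW1736-PTX, beside 20.4% of all genes. ALDH1A1 was called lower as well with a pseudocount of 0.01, with TPM, with centring on the median and at a fold limit of 1. That fold limit also added CD24 (lower) and ALDH1A3 (higher). The median log2 fold change of the markers compared was 2.46 in SW1736-PTX against SW1736 wt, 0.66 in 8505C-PTX against 8505C wt and -0.32 in SW1736-PTX against 8505C wt. That of all genes compared was 0.01, 0.11 and 0.10. The median of 2.46 includes the markers that could only be higher and does not show a general rise. The 4 markers above 0.5 FPKM in both SW1736 libraries had log2 fold changes of 2.46 (KLF4), -0.89 (BMI1), -1.09 (CD44) and -3.45 (ALDH1A3).

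**Figure D1:**
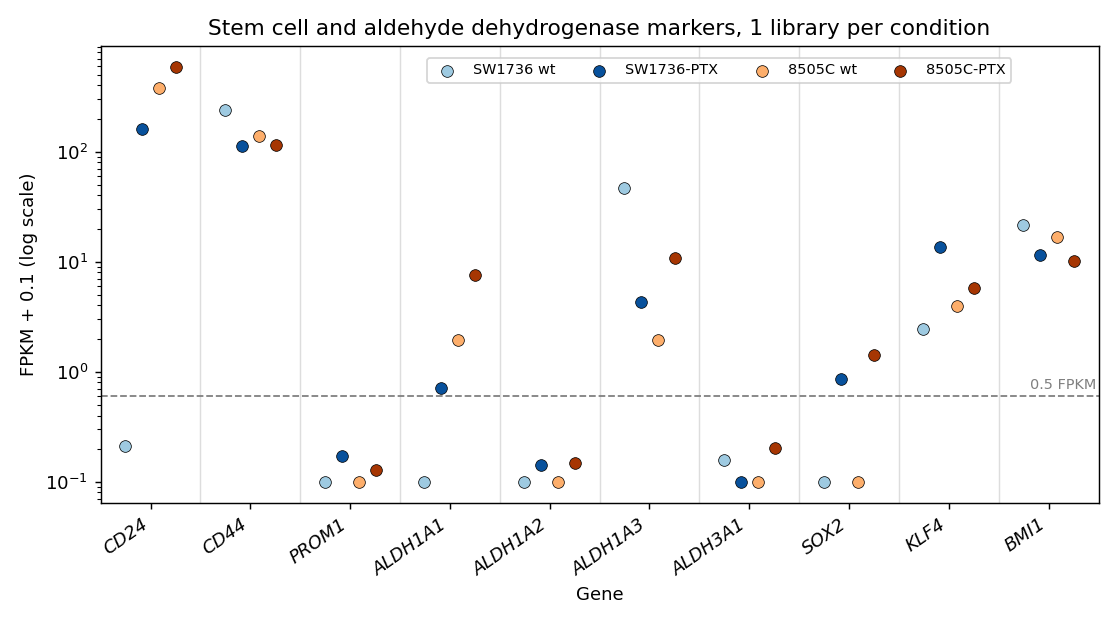
FPKM plus 0.1 on a log scale (y axis) of the 10 markers (x axis) in the 4 libraries, with 1 point per library and a dashed line at 0.5 FPKM. CD24 lies at 0.112 FPKM in SW1736 wt and between 161 and 592 elsewhere, ALDH1A3 is highest in SW1736 wt, and SOX2 lies above 0.5 FPKM only in the PTX libraries.

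Between the wt lines, 3 of 6 markers compared were called, beside 17.6% of all genes. CD24 and ALDH1A1 were lower and ALDH1A3 was higher in SW1736 wt than in 8505C wt, with log2 differences of -10.79, -4.27 and 4.59. Between the PTX lines, 2 of 7 were called, beside 7.79% of all genes. CD24 (log2 difference -1.88) and ALDH1A1 (-3.41) were lower in SW1736-PTX than in 8505C-PTX. On the log2 scale, 6 of 7 markers lay nearer to 8505C wt than to SW1736 wt in SW1736-PTX, and SOX2, at 0 in both wt libraries, was at equal distance. Of all 14388 genes measured there, 56.4% lay nearer to 8505C wt.

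The sequences ahead of a RefSeq start site of the 5 markers called in at least 1 line are shown for reading beside their levels. Each run holds the 250 bases before a RefSeq start site (GRCh38.p14), written 5′ to 3′ on the strand of the gene. Capitals mark the GC box GGGCGG and the CCAAT box CCAAT on either strand, and neighbouring GC boxes may overlap. By the gene spans given below, the windows of CD24 and ALDH1A1 lie inside the gene, and that of ALDH1A3 runs into it. The windows are chr6:106975628-106975877, minus strand, for CD24 (the first of 3 listed start sites), chr9:72953054-72953303, minus strand, for ALDH1A1, chr15:100879581-100879830, plus strand, for ALDH1A3, chr3:181711675-181711924, plus strand, for SOX2, and chr9:107489770-107490019, minus strand, for KLF4.
CD24: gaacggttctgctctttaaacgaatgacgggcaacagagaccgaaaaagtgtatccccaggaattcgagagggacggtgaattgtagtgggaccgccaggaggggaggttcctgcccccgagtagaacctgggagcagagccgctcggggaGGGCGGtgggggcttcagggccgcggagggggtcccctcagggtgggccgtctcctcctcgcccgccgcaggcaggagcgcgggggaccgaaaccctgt
ALDH1A1: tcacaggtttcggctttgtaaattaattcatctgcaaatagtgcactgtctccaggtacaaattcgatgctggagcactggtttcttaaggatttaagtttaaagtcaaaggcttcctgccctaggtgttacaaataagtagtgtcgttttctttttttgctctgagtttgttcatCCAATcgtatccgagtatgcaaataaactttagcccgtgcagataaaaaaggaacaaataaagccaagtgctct
ALDH1A3: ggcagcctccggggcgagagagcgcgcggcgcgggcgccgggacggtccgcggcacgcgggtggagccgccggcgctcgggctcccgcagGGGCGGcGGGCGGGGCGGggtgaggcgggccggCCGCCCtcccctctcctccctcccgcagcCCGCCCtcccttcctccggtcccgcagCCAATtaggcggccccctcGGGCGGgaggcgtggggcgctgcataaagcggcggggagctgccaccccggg
SOX2: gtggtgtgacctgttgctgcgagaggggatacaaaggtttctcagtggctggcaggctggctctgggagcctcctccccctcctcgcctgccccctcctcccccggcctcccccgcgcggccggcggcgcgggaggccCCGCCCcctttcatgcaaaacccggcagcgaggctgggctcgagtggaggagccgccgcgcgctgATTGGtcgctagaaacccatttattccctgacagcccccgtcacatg
KLF4: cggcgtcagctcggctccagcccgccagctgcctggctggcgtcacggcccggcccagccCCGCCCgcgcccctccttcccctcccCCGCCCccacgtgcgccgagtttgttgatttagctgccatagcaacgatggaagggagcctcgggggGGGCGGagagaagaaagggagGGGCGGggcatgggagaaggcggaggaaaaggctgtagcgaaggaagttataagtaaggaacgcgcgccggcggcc

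The ALDH1A1 window was 38.4% G and C with 6 CpG dinucleotides and no GC box, and the ALDH1A3 window was 82.4% with 38 CpG and 6 GC boxes. Of the 34943 promoter windows in the RefSeq table, the middle 50% lay between 46.4% and 68.0% G and C and between 3 and 23 CpG. The windows of CD24 (65.6%, 20 CpG), SOX2 (68.8%, 20 CpG) and KLF4 (69.2%, 25 CpG) were near or just above the upper of these limits. A GC box was found in 4 of the 5 windows and in 42.5% of all windows, and the CCAAT box in 3 of the 5 and in 32.0%. The TATA box TATAAA (10.8% of all windows) and the letters GGGTGTG, a core bound by KLF factors (6.63%), were searched on both strands and were in none of the 5. A match is only a description of letters in the window.

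CD24 was the marker whose level differed most among the libraries. The gene lies on chromosome 6 from 106969831 to 106976855 (hg38, minus strand, 2 exons in its MANE transcript). It was at 0.112 FPKM in wt and 161 in PTX cells of SW1736, and at 375 in wt and 592 in PTX cells of 8505C. The SW1736 wt library thus stood alone near the floor, and CD24 was above 97.3% of the genes over 0.5 FPKM in SW1736-PTX and above 99.2% of them in 8505C-PTX. The value in SW1736 wt rests on about 11.8 estimated reads, with an exact Poisson interval (95%) of 0.0575 to 0.196 FPKM. Such intervals take the length of the MANE transcript and cover counting error only. SW1736-PTX exceeded SW1736 wt 1439-fold, a log2 fold change of 9.57, and was 2.33-fold below 8505C wt, a log2 fold change of -1.22. In 8505C the ratio of PTX to wt was 1.58 (0.66 on the log2 scale) and was not called. Since SW1736 wt lies below 0.5 FPKM, requiring this level in both libraries leaves CD24 out of the SW1736 comparison. CD24 has near-identical processed copies elsewhere in the genome, and the tables list 0 names beginning with CD24P, so reads of such copies could not be told apart from its own. MIR7641-2, whose listed span covers CD24 and most of chromosome 6, was at 0 in every library.

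CD44 (chromosome 11, 35138870 to 35232402, plus strand) was abundant in every library, at 237 FPKM in wt and 111 in PTX cells of SW1736, and at 139 in wt and 114 in PTX cells of 8505C. It was highest in SW1736 wt, and the other 3 libraries lay between 111 and 139 FPKM. The log2 fold change was -1.09 in SW1736 and -0.29 in 8505C, and -0.32 in SW1736-PTX against 8505C wt, and none was called. The tables give CD44 as 1 value per gene, so that its spliced variants, which differ in the middle exons, were not resolved. Because both surface markers are read in the same library, their ratio does not depend on depth. CD44 exceeded CD24 2114-fold in SW1736 wt, whereas CD24 exceeded CD44 1.45-fold in SW1736-PTX, 2.69-fold in 8505C wt and 5.20-fold in 8505C-PTX. SW1736 wt was the only library with more CD44 than CD24.

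PROM1 (chromosome 4, 15968226 to 16084000, minus strand) was at 0 in both wt libraries, at 0.0728 FPKM in SW1736-PTX and at 0.0291 in 8505C-PTX. These correspond to about 16.9 and 6.27 reads, and their counting intervals, 0.0423 to 0.117 and 0.0110 to 0.0624 FPKM, overlap. In the wt libraries, 3 reads would have given 0.0152 FPKM in SW1736 and 0.0171 in 8505C. The level in SW1736-PTX was 4.77 times that of 3 reads in SW1736 wt, and the level in 8505C-PTX was 1.70 times that of 3 reads in 8505C wt. All levels of PROM1 lay below 0.5 FPKM, and the gene was not among those compared.

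**Figure D2:**
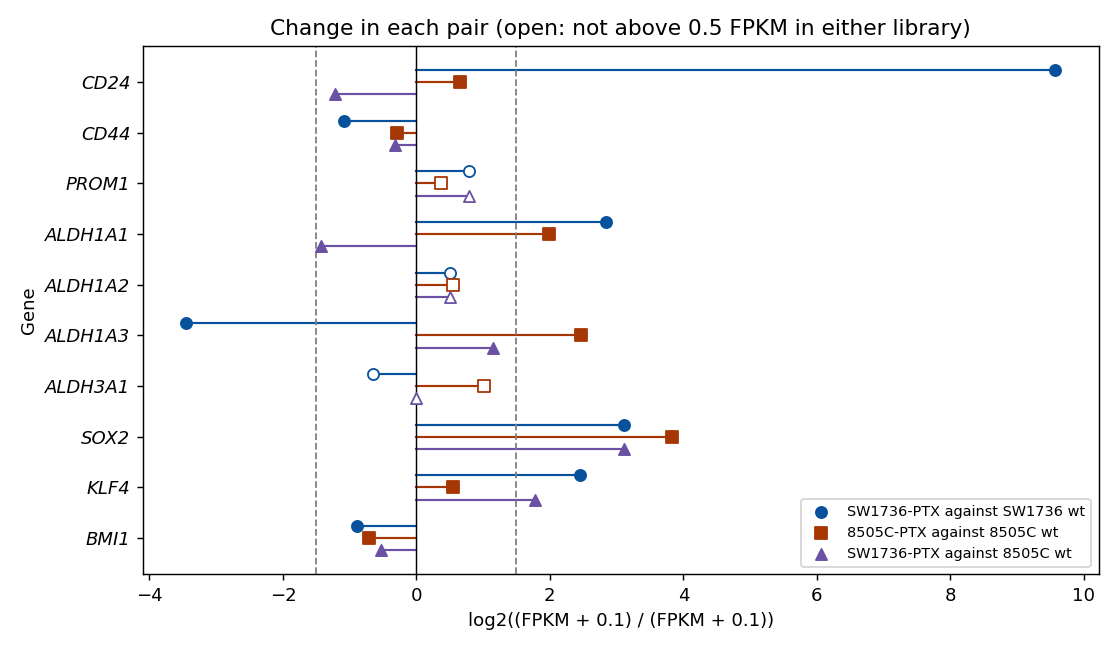
Log2 fold change (x axis, FPKM plus 0.1) of each marker (y axis) in SW1736-PTX against SW1736 wt (circles), 8505C-PTX against 8505C wt (squares) and SW1736-PTX against 8505C wt (triangles), with dashed lines at 1.5 and -1.5 and open symbols for markers not above 0.5 FPKM in either library. SOX2 lies beyond 1.5 in all 3 comparisons, while ALDH1A3 lies at -3.45 in SW1736 and at 2.47 in 8505C.

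Among the retinal-oxidizing enzymes, ALDH1A3 (chromosome 15, 100879692 to 100916625, plus strand, 13 exons) was called in opposite directions in the libraries labelled SW1736-PTX and 8505C-PTX when each was set against the wt cells of its line. It was at 47.1 FPKM in wt and 4.23 in PTX cells of SW1736, and at 1.86 in wt and 10.7 in PTX cells of 8505C. SW1736 wt was far above the rest, and the PTX libraries lay between the wt libraries. SW1736-PTX was 11.1-fold below SW1736 wt (log2 fold change -3.45), and 8505C-PTX was 5.77-fold above 8505C wt (2.47). Of the 13304 genes compared in both lines, 0.654% were called lower in SW1736-PTX and higher in 8505C-PTX. Against 8505C wt, SW1736-PTX was 2.28-fold higher, 1.14 on the log2 scale, which was not called, so that the direction in SW1736-PTX depends on the wt library it is set against.

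ALDH1A1 (chromosome 9, 72900662 to 72953317, minus strand, 13 exons) was at 0 FPKM in wt and 0.616 in PTX cells of SW1736, and at 1.83 in wt and 7.52 in PTX cells of 8505C. It was called higher in both PTX lines, as were 7.37% of the 13304 genes compared in both. In SW1736-PTX it was at 21.1 times the FPKM of 3 reads in SW1736 wt (0.0292), and its level would have given about 63.2 reads at the depth of that library. In 8505C the rise was 4.12-fold, 1.98 on the log2 scale. SW1736-PTX remained 2.97-fold below 8505C wt (log2 fold change -1.43), so the rise is seen only against its own wt line. The log2 fold change in SW1736, 2.84, fell to 0.69 when 1 was added to the FPKM in place of 0.1, and then was not called.

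ALDH1A2 (chromosome 15, 57953424 to 58065923, minus strand) was at 0 in both wt libraries, at 0.0420 FPKM in SW1736-PTX and at 0.0469 in 8505C-PTX, or about 8.24 and 8.50 reads. ALDH3A1 (chromosome 17, 19737985 to 19748433, minus strand) was at 0 in SW1736-PTX and 8505C wt, and had 0.0565 FPKM in SW1736 wt and 0.102 in 8505C-PTX. The counting intervals of the detected values overlapped for both genes. For ALDH3A1, the interval at 0 in SW1736-PTX (up to 0.0389 FPKM) lay below that in 8505C-PTX (from 0.0469). The interval at 0 in 8505C wt (up to 0.0517 FPKM) overlapped that in 8505C-PTX.

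The makeup of the ALDH1A group therefore differed between libraries. ALDH1A1, ALDH1A2 and ALDH1A3 summed to 47.1 FPKM in wt and 4.89 in PTX cells of SW1736, and to 3.69 in wt and 18.3 in PTX cells of 8505C. ALDH1A3 made up 100% of the sum in SW1736 wt, 86.5% in SW1736-PTX, 50.4% in 8505C wt and 58.6% in 8505C-PTX. ALDH1A1 made up most of the remainder, with 12.6% in SW1736-PTX, 49.6% in 8505C wt and 41.1% in 8505C-PTX. Over all 19 aldehyde dehydrogenase genes, the ALDH1A group held 19.5% of the summed FPKM in wt and 3.27% in PTX cells of SW1736, and 2.46% in wt and 9.93% in PTX cells of 8505C. The most abundant of the 19 in both wt libraries was ALDH18A1, an enzyme of proline synthesis, at 75.2 FPKM in SW1736 wt and 38.3 in 8505C wt.

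**Figure D3:**
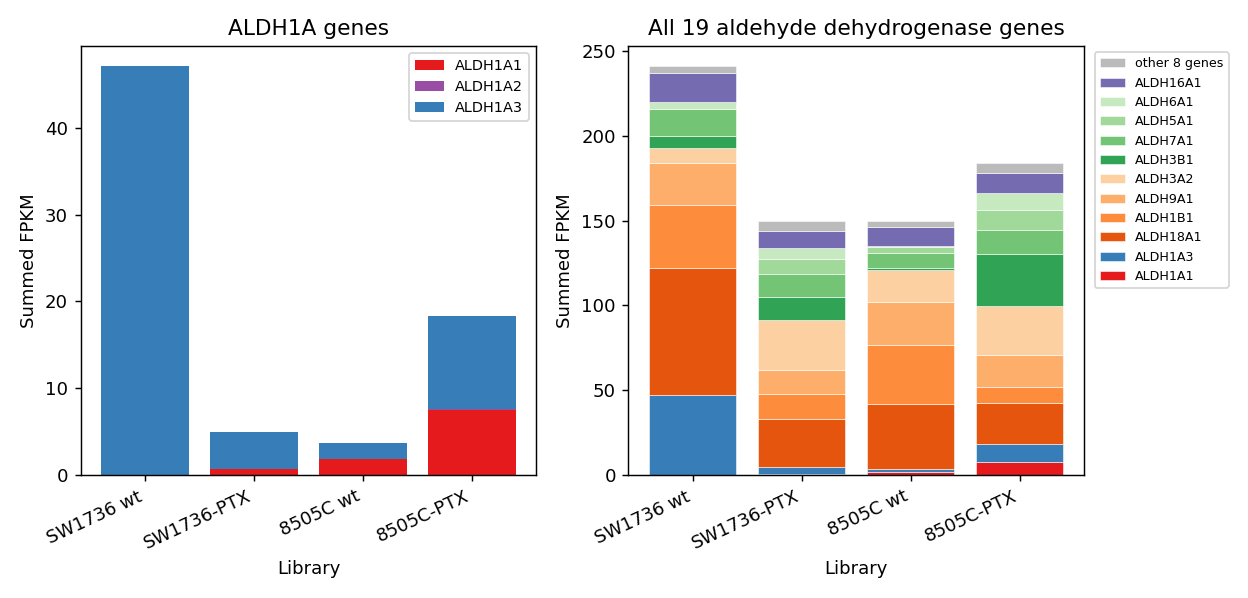
Stacked FPKM (y axis) of the 3 ALDH1A genes (left) and of all 19 aldehyde dehydrogenase genes (right) in each library (x axis). The ALDH1A sum falls from 47.1 FPKM in SW1736 wt to 4.89 in SW1736-PTX and rises from 3.69 in 8505C wt to 18.3 in 8505C-PTX, and the family sum lies between 149.8 and 241 FPKM.

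Of the 15 other aldehyde dehydrogenases, 2 were called higher and 0 lower among 10 compared in SW1736, and 4 higher and 1 lower among 11 compared in 8505C, beside 25.9% and 20.9% of all genes called in either direction. Against 8505C wt, 2 of 10 were higher and 0 lower in SW1736-PTX, beside 20.4%. The medians of those compared were 0.10 in SW1736, 0.64 in 8505C and 0.64 against 8505C wt on the log2 scale. ALDH5A1, the mitochondrial succinate semialdehyde dehydrogenase, was called in both lines, from 0 to 9.06 FPKM in the SW1736 pair and from 3.69 to 11.5 in the 8505C pair, and was 1.27 higher on the log2 scale in SW1736-PTX than in 8505C wt, which was not called. ALDH3B1, which oxidizes lipid-derived aldehydes, rose from 1.27 to 30.8 FPKM in 8505C, a log2 fold change of 4.50, with 7.10 and 13.1 FPKM in wt and PTX cells of SW1736. ALDH1B1, a mitochondrial enzyme, fell from 34.4 to 9.12 FPKM in 8505C (log2 fold change -1.91), with 37.1 and 14.8 FPKM in wt and PTX cells of SW1736. In SW1736-PTX against 8505C wt, ALDH3B1 was called higher (3.27) and ALDH1B1 was not called (-1.21).

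The genes of retinoid metabolism and signalling are those that make and read the product of the ALDH1A enzymes. Of 20 genes, 12 were compared in each line, with 2 higher and 1 lower in SW1736 and 4 higher and 1 lower in 8505C, beside 25.9% and 20.9% of all genes called, and medians of 0.58 and 0.89. Against 8505C wt, 4 of 12 were higher and 1 lower in SW1736-PTX, beside 20.4% of all genes called, with a median of 0.80. RARB, a retinoic acid receptor gene that is itself induced by retinoic acid, rose from 0.033 to 9.84 FPKM in SW1736 (log2 fold change 6.22) and from 1.92 to 10.9 in 8505C (2.44). Against 8505C wt, RARB was higher in SW1736-PTX by 2.30 on the log2 scale, and LRAT by 2.33. LRAT, which esterifies retinol, was at 0 FPKM in wt and 0.557 in PTX cells of SW1736, and at 0.031 in wt and 0.501 in PTX cells of 8505C. DHRS3, which reduces retinal back to retinol, was at 53.9 FPKM in wt and 12.8 in PTX cells of SW1736, and at 1.22 in wt and 52.4 in PTX cells of 8505C. It was thus called lower in SW1736-PTX against SW1736 wt (log2 fold change -2.06) and higher in 8505C-PTX against 8505C wt (5.32). Against 8505C wt, DHRS3 was called higher in SW1736-PTX (3.29), so that, as for ALDH1A3, its direction turned with the wt library. FABP5, a carrier of fatty acids and retinoic acid, fell from 199 to 52.3 FPKM in 8505C while SW1736 wt and PTX cells had 25.3 and 59.4 FPKM. In SW1736-PTX, FABP5 was called lower against 8505C wt (log2 fold change -1.75) but was not called against SW1736 wt (1.23).

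SOX2 was at 0 in both wt libraries and was detected in both PTX libraries. The gene (chromosome 3, 181711924 to 181714435, plus strand) has 1 exon. It was at 0.762 FPKM in SW1736-PTX (exact Poisson interval 0.627 to 0.918) and at 1.32 in 8505C-PTX (1.13 to 1.53), or about 111 and 178 reads. These were 31.2 and 48.1 times the FPKM of 3 reads in the wt library of the line, 0.0244 in SW1736 and 0.0274 in 8505C. At the depth of the wt libraries, the PTX levels would have given about 93.7 and 144 reads. The level in SW1736-PTX was 27.8 times the FPKM of 3 reads in 8505C wt. The levels were low, above 5.03% and 11.3% of the genes over 0.5 FPKM in SW1736-PTX and 8505C-PTX. SOX2 lies within SOX2-OT (181056680 to 181742225, same strand), which was at 0 in both wt libraries, 0.0452 FPKM in SW1736-PTX and 0.0888 in 8505C-PTX, so that reads of the overlap could be shared. With 1 added to the FPKM, the log2 fold change was 0.82 in SW1736 and 1.21 in 8505C, and neither was called.

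Of the 10 markers, 3 (PROM1, ALDH1A2 and SOX2) were at 0 in both wt libraries, and all 3 were above 0 in both PTX libraries. The counting intervals of ALDH1A2 in PTX cells overlapped those of wt cells in both lines, and those of PROM1 did in 8505C. Only for SOX2 were they apart in both lines. Of the 8970 gene names at 0 in both wt libraries, 9.12% were above 0 in both PTX libraries, and 0.658%, or 59 genes with SOX2 among them, were above 0.5 FPKM in both. By the lower of its PTX levels SOX2 ranked 36 among these 59. The greater depth of the PTX libraries and their smaller number of genes at 0 move with this pattern, and their part in it was not tested beyond the read numbers given for SOX2.

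KLF4 (chromosome 9, 107484852 to 107489766, minus strand, 5 exons) was at 2.36 FPKM in wt and 13.4 in PTX cells of SW1736, and at 3.84 in wt and 5.67 in PTX cells of 8505C. SW1736-PTX stood above the other 3 libraries. It exceeded SW1736 wt 5.68-fold (log2 fold change 2.46) and 8505C wt 3.49-fold (1.78), and both differences were called. In 8505C the ratio was 1.48, 0.55 on the log2 scale, and was not called.

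BMI1 (chromosome 10, 22321210 to 22331485, plus strand) was at 21.4 FPKM in wt and 11.5 in PTX cells of SW1736, and at 16.6 in wt and 10.1 in PTX cells of 8505C. Both PTX libraries were below both wt libraries, with log2 fold changes of -0.89 in SW1736, -0.72 in 8505C and -0.53 in SW1736-PTX against 8505C wt, and none was called. The readthrough gene COMMD3-BMI1 (22316383 to 22331485), which covers all of BMI1, was at 0 in both 8505C libraries, and had 0.0781 FPKM in wt and 0.641 in PTX cells of SW1736. COMMD3, the upstream neighbour, was at 16.0, 30.0, 21.1 and 22.7 FPKM in the order SW1736 wt, SW1736-PTX, 8505C wt and 8505C-PTX.

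A total of 8 lists of genes related to the markers, 133 genes in all, were examined beside them. In SW1736, 28 of 87 genes compared were called (32.2%, beside 25.9% of all genes), 19 higher and 9 lower. In 8505C, 22 of 85 were called (25.9%, beside 20.9%), 16 higher and 6 lower. In SW1736-PTX against 8505C wt, 19 of 84 were called (22.6%, beside 20.4%), 14 higher and 5 lower. Of 14 other surface and efflux markers of stem cells, 5 were higher and 1 lower among 10 compared in SW1736, and 0 were higher and 2 lower among 9 compared in 8505C. Against 8505C wt, 0 were higher and 1 lower of 9 in SW1736-PTX, with a median of -0.97. None of the rises in SW1736 was called with that wt library. The log2 fold changes of the genes that rose then lay between -1.02 and 1.42, in both directions. CXCR4, a chemokine receptor, was at 0 FPKM in wt and 1.105 in PTX cells of SW1736, and at 2.34 in wt and 1.25 in PTX cells of 8505C. FUT4, which makes the Lewis X epitope, fell from 1.77 to 0.225 FPKM in SW1736. Against 8505C wt, the log2 fold changes of SW1736-PTX were -1.02 for CXCR4 and -0.67 for FUT4, and neither was called. DCLK1, a microtubule-associated kinase, fell from 1.61 to 0.298 FPKM in 8505C. It was at 0.891 and 0.358 FPKM in wt and PTX cells of SW1736, which was not called. In SW1736-PTX against 8505C wt, DCLK1 was called lower (log2 fold change -1.90).

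Among 18 genes of hyaluronan and CD44 partners, 2 of the 14 compared in SW1736 were higher and 5 lower, and in 8505C 2 of 13 were higher and 2 lower. Of all genes, 15.7% were higher and 10.2% lower in SW1736, and 15% and 5.89% in 8505C. Against 8505C wt, 1 of 12 was higher and 2 lower in SW1736-PTX, beside 20.4% of all genes called. HAS3, a hyaluronan synthase, fell in both lines, in SW1736 from 5.25 to 0.466 FPKM, in 8505C from 1.99 to 0.429. HYAL1, a hyaluronidase, rose in both, from 0.019 to 0.621 FPKM and from 0.032 to 0.701. Against 8505C wt, the log2 fold changes of SW1736-PTX were -1.88 for HAS3 and 2.45 for HYAL1, both called. VCAN, a hyaluronan-binding proteoglycan, fell from 36.8 to 0.468 FPKM in SW1736 and was at 0.902 and 1.27 FPKM in the 8505C pair, with -0.82 in SW1736-PTX against 8505C wt, not called. In 8505C, SPP1 (osteopontin, a CD44 ligand) rose from 0 to 1.31 FPKM and HMMR, a hyaluronan receptor of the mitotic spindle, fell from 36.1 to 8.80. Wt and PTX cells of SW1736 had 0 and 0.336 FPKM of SPP1 and 31.9 and 12.7 of HMMR, in the same directions, and neither gene was called.

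Of 16 other pluripotency and stem cell factors, 11 stayed at or below 0.5 FPKM in every library, and NANOG and LIN28A were at 0 in all 4. POU5F1, which acts with SOX2 in pluripotent cells, did not exceed 0.464 FPKM. In each line 5 were compared, with 2 higher and 0 lower, beside 25.9% of all genes called in SW1736 and 20.9% in 8505C. Against 8505C wt, 1 of 5 was higher in SW1736-PTX, beside 20.4% of all genes called. NES, an intermediate filament protein of neural progenitors, was called in both, in SW1736 from 3.14 to 20.9 FPKM, in 8505C from 0.355 to 3.30, and was higher by 5.53 on the log2 scale in SW1736-PTX than in 8505C wt.

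Among the other SOX genes, 2 of 8 compared were higher in SW1736 and 2 of 7 in 8505C, and 0 were lower. Beside the SOX, KLF and polycomb counts here, 15.7% of all genes were called higher and 10.2% lower in SW1736. The shares were 15% and 5.89% in 8505C, and 20.4% were called in SW1736-PTX against 8505C wt. Against 8505C wt, 3 of 8 were higher and 1 lower in SW1736-PTX. SOX18 was listed at 0 in SW1736 wt but had 2.62 FPKM in the PTX cells. SOX4 rose from 2.57 to 12.6 FPKM in 8505C, with 5.59 and 11.2 in wt and PTX cells of SW1736, not called. Among the other KLF genes, 4 of the 12 compared in SW1736 were higher and 1 lower, and in 8505C 1 of 12 was higher and 0 lower. Against 8505C wt, 2 of 12 were higher and 0 lower in SW1736-PTX. KLF9 was called in both lines, from 8.73 to 30.7 FPKM and from 6.29 to 37.6. KLF15 rose from 0.362 to 2.48 FPKM and KLF2 fell from 7.32 to 2.23 in SW1736. Against 8505C wt, KLF9 (log2 fold change 2.27) and SOX4 (2.08) were called higher in SW1736-PTX, whereas SOX18 (0.98), KLF15 (1.17) and KLF2 (-0.67) were not called. All 16 other polycomb complex genes exceeded 0.5 FPKM in every library, and only PCGF6 in SW1736 (17.6 to 2.54 FPKM, lower) and CBX7 in 8505C (2.40 to 10.3, higher) were called in their lines. Against 8505C wt, CBX7 was called higher in SW1736-PTX (1.90) and PCGF6 was not called (-1.45).

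**Figure D4:**
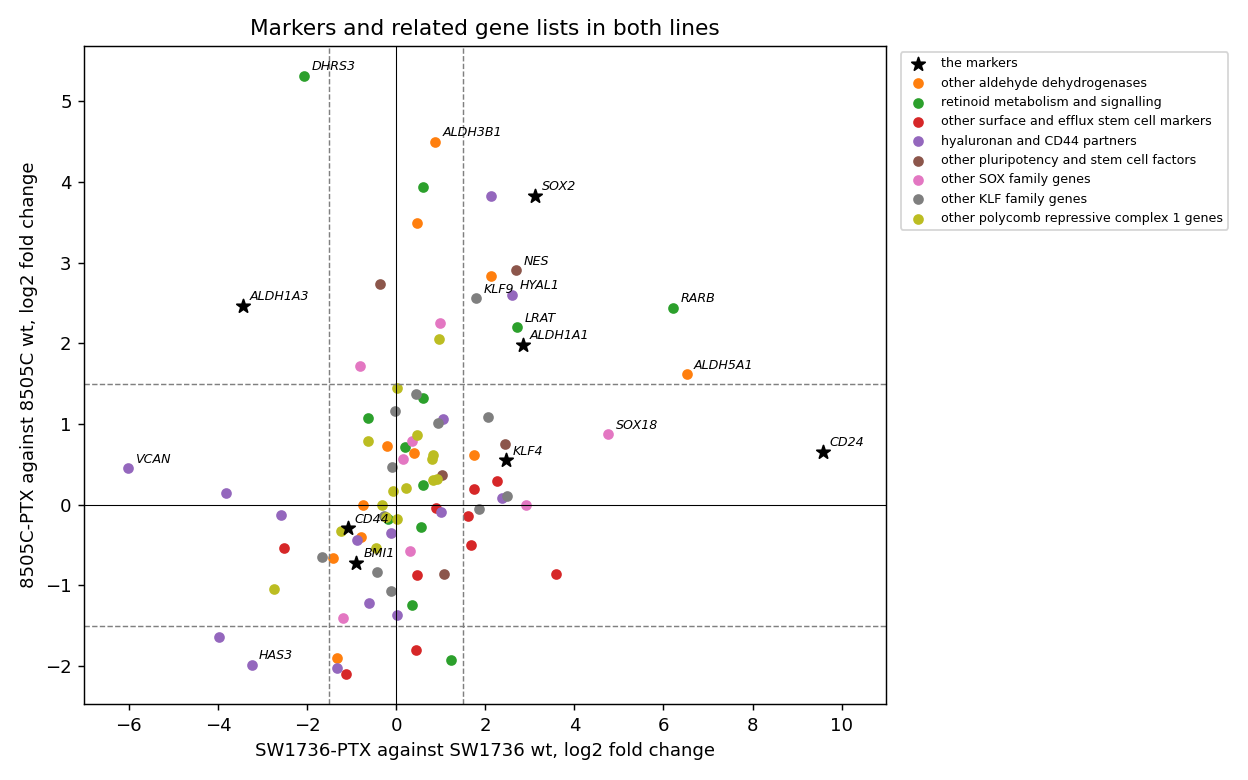
Log2 fold change in SW1736-PTX against SW1736 wt (x axis) and in 8505C-PTX against 8505C wt (y axis) of the markers (stars) and the genes of the related lists (dots, colored by list) compared in at least 1 line, with dashed lines at 1.5 and -1.5. SOX2 and ALDH1A1 lie at the upper right, CD24 at the far right (9.57 and 0.66), and ALDH1A3 and DHRS3 at the upper left.

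For the 4 markers whose log2 level spanned more than 3 units, the genes with the most similar profile over the 4 libraries were found by Euclidean distance between centred log2 levels, among 14685 other genes. CD24 was nearest to EPB41L3 (distance 1.33), IFITM2 (1.60) and LAMP3 (2.21). The nearest to ALDH1A1 were CSAG3 (0.78), ITGA4 (0.97) and CD33 (0.99). ALDH1A3 was nearest to LBX2 (0.52), MIRLET7I (0.52) and TBC1D8B (0.55), and SOX2 to LINC00174 (0.05), TRIM73 (0.26) and HLA-DPB1 (0.28). With 4 libraries, many genes can share such a profile. Where a marker is at 0, its profile also depends on the 0.1 added to the FPKM. This holds for SOX2 in both wt libraries, where LINC00174 had 0.495 (SW1736) and 0.509 FPKM (8505C).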

How the data were processed

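RNA of 4 cultures, SW1736 and 8505C wt and PTX cells, was sequenced by the study as 1 library each. According to the study's methods, the authors converted reads with bcl2fastq 2.20, removed adapters and low-quality bases, placed the 75 bp reads (single-end) on hg38 using STAR, and obtained gene levels from StringTie; the annotation and the version of StringTie are not given in the sources used here. The deposited FPKM is scaled by the authors' tool to transcript length and aligned fragments, the deposited TPM is the same value scaled to an equal total per library, and the deposited coverage is the mean read depth per base, not normalized.

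Rows of a gene name were summed. Pairs of libraries were compared as log2((FPKM + 0.1)/(FPKM + 0.1)) across all genes above 0.5 FPKM in at least 1 of the pair, and called beyond 1.5; both limits are from the methods of the study, and the pseudocount and the "at least 1" were chosen here. No condition has a replicate, so the fold limit was used and no test was run; a fit across both lines would take the lines as replicates and was not made. Depth came from the highest ratio of coverage to FPKM. Reads of a marker were estimated from FPKM, depth and its MANE transcript length (GENCODE release 44, hg38), with a floor of 3 reads and a 95% exact Poisson interval. CEMIP2 was found under its older symbol, TMEM2. Python 3.11.15, NumPy 2.4.6 and pandas 2.3.3 were used.

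The markers and gene lists were chosen with earlier results of these data known. The text names all 10 markers, the genes of each related list called in the same direction in both lines or with the largest called change in a line, the 3 most similar profiles of markers spanning over 3 log2 units, and genes overlapping a marker; NANOG, LIN28A, POU5F1, ALDH18A1, COMMD3 and the thyroid, blood and endothelial markers named (TSHR, SLC5A5, TG, PAX8, NKX2-1, CD3E, PTPRC, CD68 and CDH5) were added after their values were seen. Alternatives changed the pseudocount, the FPKM minimum, the unit, the centring, the rows and the fold limit.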

Additional observations from a re-analysis of the deposited data

Results flagged for a closer look

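ALDH1A3 and DHRS3 were called in opposite directions in the lines, each set against its own wt library. For ALDH1A3 the log2 fold change in 8505C minus that in SW1736 was 5.91, with -3.45 in SW1736 and 2.47 in 8505C. For DHRS3 it was 7.38, with -2.06 and 5.32. Against 8505C wt, the wt library SW1736-PTX resembled more (r 0.873 against 0.767 across genes), both were higher in SW1736-PTX, ALDH1A3 by 1.14 (not called) and DHRS3 by 3.29 (called) on the log2 scale, and the opposition was not seen. Each difference rests on 1 library per condition, and the difference between the lines was not tested.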

How the results depend on the processing

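A fit of the 4 libraries with the cell line as a block was not run: it would take the lines as replicates, and the labels give no replicate numbers. Each condition has 1 library, so none could be left out. The number of called markers in 8505C-PTX against 8505C wt, 3, stayed within 1.5 times under each of the 9 alternatives; it was 2 with a pseudocount of 1 or an FPKM above 0.5 in both libraries (SOX2 lost) and at a fold limit of 2 (ALDH1A1 lost). In SW1736-PTX against SW1736 wt the number went from 5 to 3 with a pseudocount of 1 (CD24, ALDH1A3 and KLF4 left) and to 2 with an FPKM above 0.5 in both libraries (ALDH1A3 and KLF4), because the other calls start from a wt level at or near 0. In SW1736-PTX against 8505C wt it went from 2 to 1 under each of these (KLF4), to 5 at a fold limit of 1 and to 1 at a limit of 2 (SOX2), and it was 3, with ALDH1A1 called lower, with a pseudocount of 0.01, with TPM and with centring. Between the wt lines, 1 of 3 calls was left with the FPKM limit in both libraries (ALDH1A3). Between the PTX lines, 2 calls became 4 at a fold limit of 1 and 1 at a limit of 2 (ALDH1A1). Over the related lists, 28 calls in SW1736 became 18 with a pseudocount of 1 and 13 with the FPKM limit in both libraries, and 22 in 8505C became 14 under each of these and 36 at a fold limit of 1. No called marker changed sign under these alternatives. At this depth the counting intervals of the detected levels overlap for PROM1, for ALDH1A2 and for ALDH3A1.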
